A study of Caenorhabditis elegans with 2 samples.

Results

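The regions described here are the ranked HLH-26 peaks whose summit lies in an intron of a protein-coding gene. A peak was taken when its summit fell inside a protein-coding gene but in no coding or untranslated exon segment. Its summit also had to lie outside the window from 500 bp upstream to 100 bp downstream of every protein-coding transcript start, and more than 200 bp from any tRNA, rRNA, snRNA, snoRNA or miRNA gene. The rule used position alone and no signal, and it kept 9066 of the 35301 ranked peaks, of which 35284 were nuclear. These 9066 peaks are called intron peaks. They lay in 4660 protein-coding genes of 18449 that have sequence meeting the same rule.

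The study profiled HLH-26 by chromatin immunoprecipitation and sequencing (ChIP-seq) in whole Caenorhabditis elegans. The animals were strain RW12174, in which CRISPR inserted a GFP tag at hlh-26 together with an unc-119(+) rescue marker flanked by loxP, in an unc-119(tm4063) III background. They were young adults of 66 hours grown from starved L1 larvae after bleaching, and chromatin sonicated to 200 to 800 bp was precipitated with an antibody against GFP, although the labels' antibody field names hlh-26. There are 2 biological replicates of 1 group, both of this strain, tag, rescue and age, with no untagged or untreated group, so no comparison between conditions exists. The lists hold no read counts, so the depth behind a peak is unknown. In whole animals, strong binding in few cells and weak binding in many cannot be told apart.

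HLH-26 belongs to the worm REF-1 family of basic helix-loop-helix (bHLH) proteins, which carry a pair of bHLH domains and are related to the Hairy and Enhancer of split repressors. Proteins of that wider group bind the N-box CACNAG (N is any base) or the class C site CACGCG, while many other bHLH dimers bind E-box variants such as CACGTG. Worm introns are mostly short and AT-rich, and some hold enhancers or genes for small structural RNAs.

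The 30 bases around the summit are shown first for 5 of the 6 intron peaks that passed the authors' threshold. These 6 scored highest in the comparison of the replicates. The window of the sixth, in ints-8, which had the highest signal, is not shown. All bases shown are RefSeq bases of WBcel235 (the assembly of ce11), forward strand, 5′ to 3′. Capitals mark a match to any of the 6 bHLH hexamers searched on either strand.
mdt-26 on chrII:5661800-5661829: agccaccaaCACGCGcttttttttacccga
epc-1 on chrIII:12607549-12607578: tagaaaaagtcgtttttaacggaatttatt
nep-18 on chrII:2561801-2561830: ccagtgagccgggctacgcaaacagtgggc
Y48C3A.5 on chrII:13281782-13281811: gtcacgcctatttcatggacgaagactaca
rpi-2 on chrIV:1711427-1711456: gaattttttaaaaaaattcgatttcgctgc
Only the mdt-26 window holds a match, a class C site that starts 6 bp before the summit. The 5 windows range from 23.3% GC in epc-1 to 66.7% in nep-18.

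Next are 4 intron peaks of high signal that hold an N-box within 50 bp of the summit (capitals: CACNAG or its reverse complement CTNGTG). They are shown because the N-box is the site known for this wider group of proteins.
peb-1 on chrX:2214385-2214414: aggttatgcggaCTAGTGccacgcgattgg
daf-12 on chrX:10637527-10637556: atttagccaagcCACCAGcattcggctcct
Y51A2D.13 on chrV:18573687-18573716: gttgacgcaatcCTGGTGcctcggcgaaat
zip-7 on chrIV:16503862-16503891: actgtacgtgtgCACTAGagcgcgtttgca
The matches start 25 bp before the summit in peb-1, 14 bp before it in daf-12, 2 bp before it in Y51A2D.13 and 33 bp after it in zip-7. The peb-1 window also carries a class C site, in lower case here, which starts 18 bp before the summit. The last set shows 2 of the GC-rich summits, with no capitals because no searched hexamer lies in them.
F01D5.10 on chrII:14019704-14019733: cggggtgtcagtgggcggtagcgggcggta
tat-6 on chrV:3132325-3132354: ccatagcggggacagcgggccatagcgggc
Both windows are 73.3% GC.

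Intron peaks were sparse for the sequence they had. They made up 25.7% of the nuclear ranked peaks (exact 95% interval 25.2 to 26.2%), whereas the sequence that meets the rule is 30.3% of the nuclear genome. That is 298 peaks per Mb, against 543 per Mb in coding exons, 354 per Mb in promoter windows, 356 per Mb in untranslated exons and 245 per Mb between genes. Within 200 bp of the short RNA genes listed in the rule the density was 1192 per Mb. Of the 6 location classes, intergenic sequence alone was sparser.

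**Figure D1:**
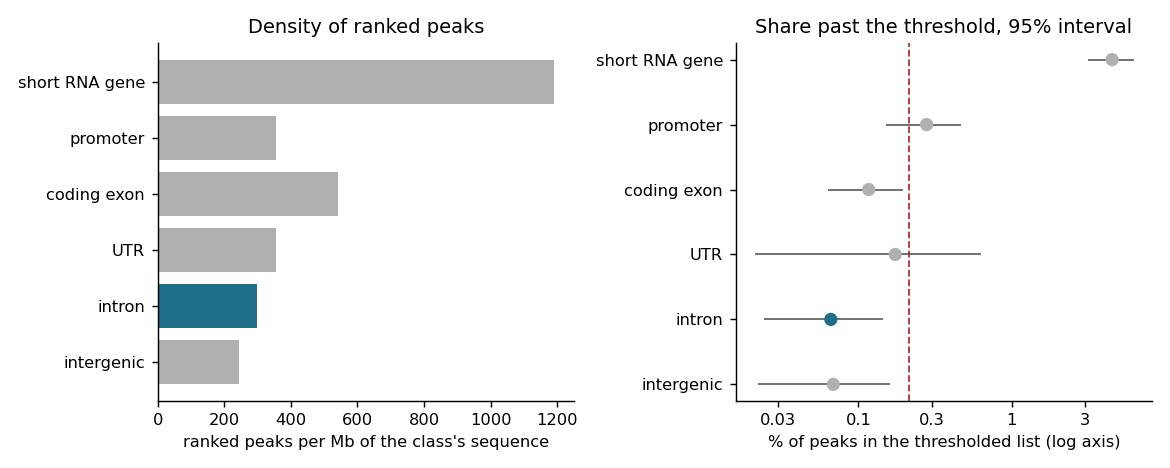
The left panel plots ranked peaks per Mb of sequence in each location class, and the right panel plots the percent of each class's peaks in the thresholded list on a log axis, with exact 95% intervals and a dashed line at the nuclear background of 0.215%. Introns stand at 298 peaks per Mb, and their interval for the thresholded share lies below the dashed line.

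Few intron peaks passed the authors' threshold, which is set on the score from comparing the replicates and not directly on a peak's own signal. Of the 9066, 6 were in the authors' thresholded list (0.0662%, exact 95% interval 0.0243 to 0.144%), against 76 of 35284 nuclear ranked peaks, a background of 0.215%. Each replicate's own list taken alone gave 1 thresholded intron peak, of 4788 in replicate 1 (0.0209%) and of 6262 in replicate 2 (0.0160%). The share over all nuclear peaks of those own lists is not given here, so these values cannot be set against 0.215%. Membership of the series thresholded list requires a score of 830 or more, the rescaled irreproducible discovery rate (IDR). This limit here went with an IDR of up to 0.986%. The corresponding shares were 0.0687% for intergenic peaks, 0.117% for coding exon peaks, 0.279% for promoter peaks and 4.51% for peaks near short RNA genes. With the last class set aside, 41 of 34507 peaks (0.119%) were thresholded, a share inside the interval of the intron peaks. At a lower score of 540 or more (IDR of up to 5.00%) there were 41 intron peaks (0.452%, 0.325 to 0.613%), against 0.774% of nuclear peaks and 0.585% of those away from short RNA genes. Typical signal hardly differed. The median signal, the peak caller's enrichment value, was 25.1 (quartiles 17.7 and 34.1) in intron peaks and 25.95 over all nuclear peaks.

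The edges of the rule decided much of the thresholded count. Before the rule's exclusions, 10395 summits lay in a gene and in no exon, and 24 of them were thresholded. The 304 within 200 bp of a short RNA gene held 15 of those 24 and had a median signal of 37.5. The 1025 in a promoter window held 3, at a median signal of 24.9. The promoter edge itself was not isolated, because the window reaches only 100 bp downstream of a start. Intron peaks therefore also lie within 500 bp of a start, as in rpi-2 (180 bp) and zip-7 (396 bp). The 490 non-exonic summits up to 100 bp short of 500 bp from a start had a median signal of 26.3. They can hold both promoter-window summits and intron peaks. The 469 intron peaks up to 100 bp beyond that distance had a median of 24.6.

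The highest intron peak lay in ints-8, a subunit gene of the Integrator complex, which processes snRNA 3′ ends. It spanned chrI:13463867-13464009 in intron 5 of 9, a 2023 bp intron, with a signal of 198 and nuclear rank 3. Its signals were 112.5 in the first and 88.8 in the second of the lists that the IDR compared, and it overlapped a thresholded peak of each replicate's own list. The next highest second-list signal of an intron peak was 67.9. The summit lay 2 bp before rpr-1, a 253 bp gene on the opposite strand to ints-8 that encodes the RNA of RNase P, the enzyme that trims tRNA 5′ ends. The annotation classes rpr-1 as ncRNA, which the rule does not list, so this peak was kept. A neighbouring intron peak over rpr-1, chrI:13463895-13464418, had a signal of 65.6 and a score of 442, with the same first-list signal but 23.1 in the second list.

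The next strongest had no annotated non-coding gene within 300 bp. In mdt-26, a Mediator subunit gene, the peak chrII:5661553-5662076 in intron 2 of 7 (386 bp) had a signal of 126.8, nuclear rank 7 and compared-list signals of 42.0 and 67.9. Replicate 1's own list held a peak there at 67.9 with a score of 807, and replicate 2's own list one at 67.9 with a score of 823, both just short of 830. In replicate 1 that signal differs from the 42.0 of the first compared list, so these are not values of the same listed peak. In epc-1, which encodes an Enhancer of Polycomb homologue, the peak chrIII:12607302-12607825 in intron 1 of 8 (976 bp) had a signal of 99.7 and compared-list signals of 56.8 and 36.8. It stood higher in replicate 1, at rank 43 of that replicate's own list against rank 318 in replicate 2's. Its own-list scores were far below 830, at 98 in replicate 1 and 89 in replicate 2.

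Another 2 thresholded peaks lay on chromosome II. In nep-18, a gene of the neprilysin family of membrane metallopeptidases, chrII:2561554-2562077 in intron 5 of 12 (697 bp) had a signal of 90.9 and compared-list signals of 37.2 and 53.4. It was stronger in replicate 2 (own rank 33, own score 798) than in replicate 1 (own rank 659, own score 44). In the other ranked list of the series its score was 748, below the threshold. In Y48C3A.5, the peak chrII:13281535-13282058 had a signal of 82.4 and nearly equal compared-list signals of 46.4 and 47.5. Its own-list scores were 190 in replicate 1 and 509 in replicate 2. It lay in intron 4 of 11, which is 19927 bp long, and also in an intron of ztf-22, a zinc finger gene, so the host gene is not unique.

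The sixth thresholded intron peak was weak in itself. The peak in rpi-2, which encodes a homologue of human RP2, spanned chrIV:1711180-1711703 in intron 1 of 5 (188 bp). Its signal was 14.7, nuclear rank 30277, although its score was 1000. It carried the same pair of compared-list signals, 58.6 and 48.8, as a promoter peak of signal 105.9 whose summit lay 203 bp away. In replicate 1's own list the score at the rpi-2 peak was 24. No peak of replicate 2's own ranked list overlapped the rpi-2 peak, and its score in the other series list was 300. Just below the threshold was a peak in T06A4.3, chrI:767019-767542, with a score of 829, a signal of 93.8 and compared-list signals of 60.8 and 30.8.

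Scores shared in this way were common. Of the intron peaks, 3280 (36.2%) carried the same compared-list signals as another ranked peak, close to the 35.7% of all nuclear peaks. In 1745 (19.2%) the intron peak was the weaker peak of such a set, with a median signal of 15.8 against 27.6 in peaks that shared nothing. Of the 41 with a score of 540 or more, 5 were weaker peaks, in rpi-2, M01H9.3, lgc-53, rpl-3 and atg-2. Leaving out every peak that shared gave 5 thresholded and 32 at 540 or more among 5786. The matching shares over all nuclear peaks that shared nothing are not given here, so these counts are no result about intron peaks.

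The first compared list is that of replicate 1 and the second that of replicate 2, as far as the lists themselves show it. For 4827 intron peaks the first list's matching peak had the coordinates and signal of a peak in replicate 1's own ranked list, and for none did it match replicate 2's. For 5028 the second list's peak was identical to a peak of replicate 2's own list, and for none to replicate 1's. Across all 9066 the 2 signals were weakly related (Spearman's rho 0.126 across peaks, 0.149 over all nuclear peaks, both as descriptions, since peaks of shared libraries are not independent). The first list's signal was the higher in 66.6% of intron peaks and 66.7% of nuclear peaks. The signals are on a scale that the sources do not state, and each list has its own lower limit.

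**Figure D2:**
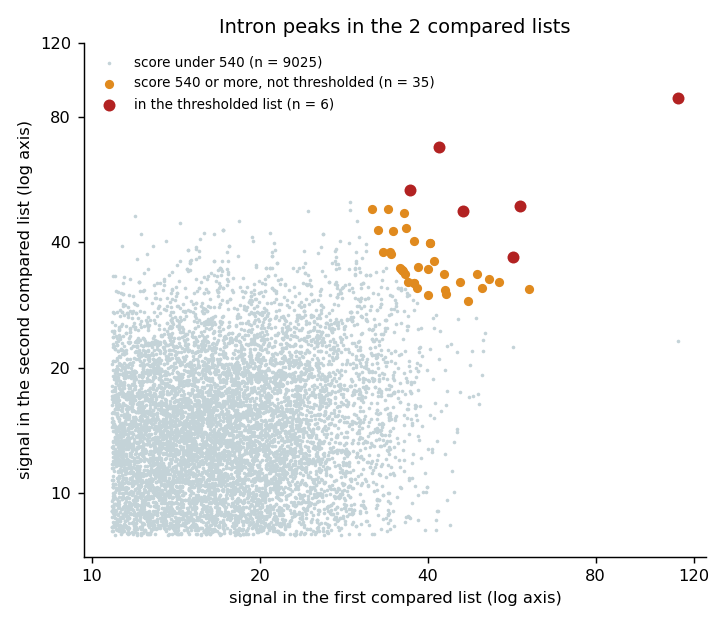
Each point is 1 of the 9066 intron peaks, with its signal in the first compared list on the x axis and in the second on the y axis, both log axes. The 6 thresholded peaks (red) and the 35 others with a score of 540 or more (orange) occupy the corner where both signals are high, at 31.8 or more in the first list and 28.9 or more in the second, while the rest form a cloud with little slope. The score is computed from the compared lists, so the place of the coloured points largely follows from how they were picked.

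Recurrence in the replicates' own ranked lists rose with signal. An intron peak overlapped a ranked peak of both replicates in 2672 cases (29.5%), of replicate 1 alone in 1944 (21.4%), of replicate 2 alone in 2194 (24.2%) and of neither in 2256 (24.9%). These counts need 1 bp of overlap, and with summits within 100 bp the share in both was 11.1%. The share in both was 31.1% over all nuclear peaks, 34.04% in coding exons and 25.2% between genes. In 4 equal groups of intron peaks by signal, from the highest to the lowest, it was 48.7%, 29.1%, 21.4% and 18.7%. At a score of 540 or more it was 40 of 41, the exception being rpi-2, and 93.4% over all nuclear peaks of that score. The score comes from comparing the replicates, so a high score itself calls for a peak in both. The replicates' own lists come from the same libraries as the series list, so the overlap is no independent replication. Few peaks of any class overlapped the replicates' own thresholded peaks. For replicate 1 it was 2 intron peaks, both at ints-8, of 14 nuclear peaks, and for replicate 2 it was 3 of 16, of which the third was in F53F10.1 with a signal of 22.5.

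The 41 intron peaks with a score of 540 or more lay in 37 genes of varied kinds. They included daf-12, the nuclear hormone receptor gene of dauer control (signal 85.6, score 790, compared-list signals 51.6 and 32.6), in its 8353 bp first intron. The peak in dyf-19, a gene for ciliary transition fibres, had a signal of 85.9, a score of 805 and compared-list signals of 53.8 and 32.1, and a second peak overlapped it in the same 423 bp intron at a signal of 50.5. In tat-6, a P4-type ATPase gene, the values were 78.5, 808, 49.04 and 33.6 in the same order. All of these leaned to the first compared list, as did 28 of the 41 (68.3%) and 66.6% of all intron peaks.

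Others leaned the opposite way. The bZIP gene zip-7 had a signal of 81.5, a score of 770 and compared-list signals of 36.2 and 46.9. The collagen gene col-43 had 81.4, 610, 32.6 and 42.9, and its peak was also in the thresholded part of the other series list. The peak in tbc-19, which encodes a TBC-domain protein of the kind that acts on Rab GTPases, had 77.6, 730, 36.5 and 43.2. The peak in ceh-21, a ONECUT homeobox gene, had 74.6, 693, 33.97 and 47.9.

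The remaining named peaks were close together in signal. Signals of 75.8 to 82.8 with scores of 585 to 818 were found in Y51A2D.13, fnip-2 (a folliculin-interacting protein gene), klp-6 (a kinesin-3 gene), M01H9.3, C36E8.4, chmp-7 (an ESCRT-III gene), Y45G12B.3, mrp-1 (an ABC transporter gene) and srw-51 (a chemoreceptor gene). Within that range no peak stood apart. High signal did not always bring a high score: peb-1, a DNA-binding factor gene of the pharynx, had a signal of 86.6 but a score of 390, with compared-list signals of 56.9 and 22.4. F01D5.10 (79.1, score 484) and F53B1.8 (78.0, score 496) were also under 540. Among the 100 nuclear peaks of highest signal 13 were intron peaks, and among the highest 1000 there were 190 (19%), below the 25.7% they make up overall.

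Inside genes, intron peaks lay more often in short introns and near splice sites than the eligible sequence did. The host intron had a median length of 682.5 bp (quartiles 261 and 2172), against 927 bp (419 and 2389) for a base drawn from all sequence that meets the rule. Introns of 100 bp or less held 14.9% of intron peaks (exact interval 14.2 to 15.7%) on 9.16% of the sequence, and introns of over 100 and up to 300 bp held 12.7% on 9.18%. Introns from 1000 to under 2000 bp held 12.9% on 18.7%. The longest introns were at par, with 5.02% of peaks and 4.62% of sequence beyond 10000 bp.

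**Figure D3:**
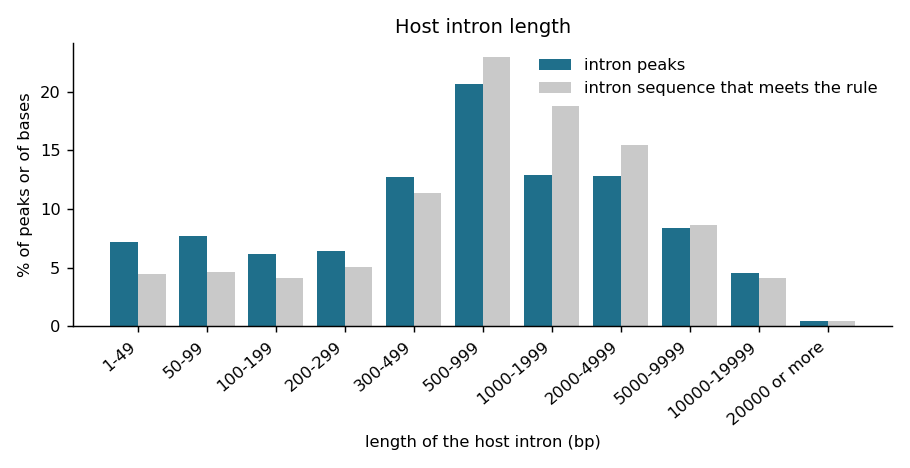
Bars give the percent of intron peaks (blue) and of the intron bases that meet the rule (grey) by the length of the host intron in bp. The peaks exceed the sequence in every bin below 500 bp and fall under it between 500 and 10000 bp.

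The summit lay within 100 bp of a splice site in 43.2% of peaks (42.2 to 44.2%), where 33.4% of the sequence lies, and the median distance was 137 bp against 201 bp. Every base of an intron of 100 bp or less lies that close to a splice site, and the distance was not split by intron length. Peaks are wider than many introns, at 524 bp in the median. For 41.6% of them the host intron was shorter than the peak itself (31.0% by sequence). The median peak had 22.3% exonic bases, 3083 peaks (34.01%) had none, and in 1965 (21.7%) most of the peak was exonic. Many peaks with an intron summit thus span exons too. Among the named peaks, col-43 (58 bp intron) was 88.9% exonic, chmp-7 (48 bp intron) 90.8% and C36E8.4 (49 bp intron) 63.9%, whereas 17 of the 41 with a score of 540 or more held no exonic base.

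Along the gene the peaks followed the sequence. The first intron held 2164 of the 9040 peaks with a host intron in a coding transcript (23.9%, 23.1 to 24.8%), and 23.8% of the sequence. The second intron held 16.2% against 16.03% and the third 12.7% against 12.3%. Along an intron, the part nearest its 5′ end held 33.9%, the middle 33.7% and the part nearest its 3′ end 32.4%, against 34.6%, 33.9% and 31.5% of the sequence. In each case the share of sequence lay inside the exact 95% interval of the peaks.

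Chromosome X carried the densest intron peaks. It held 2006 of them (22.1%, 21.3 to 23.0%) on 16.5% of the eligible sequence, or 400.3 per Mb. Chromosomes II and V followed at 334 and 328 per Mb, then III at 273, and I and IV were lowest at 236 and 229. All nuclear peaks gave the same order, from 422 per Mb on X to 282 on IV. On X the median signal was 25.5 against 25.1 over all intron peaks, and 11 peaks had a score of 540 or more (0.548% against 0.452%). None was thresholded, where the share over all intron peaks was 0.0662%.

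Peak density rose steeply with GC content. In the 101 bp around the summit, median GC was 38.6% in intron peaks, 32.7% over all eligible intron positions and 47.5% in the 41 peaks with a score of 540 or more. Density rose at each step, from 157 intron peaks per Mb below 35% GC to 388 at 35 to 40%, 538 at 40 to 45%, 726 at 45 to 50% and 1126 at 50% or more. Median signal rose with it, from 22.5 to 30.9. The part of GC content in these counts was not tested.

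At matched GC introns and coding exons lay close together from 35% upward, but not below it. In coding exons the densities over the same 5 steps were 250.4, 374, 535, 770.1 and 1182 per Mb in that order, against 157 to 1126 in introns. The lowest step, where exons were clearly the denser, holds 63.1% of the eligible intron positions. Intergenic sequence was below introns at every step, at 117, 267, 446, 565 and 887 per Mb. Promoter windows, at 202.5, 356, 480, 655 and 1095 per Mb, were above introns below 35% GC and under them at the other steps. The differences by intron length and by chromosome did not vanish at matched GC. Introns of 300 bp or less held 318 peaks per Mb below 35% GC and 1484 at 50% or more, against 121 and 1095 in longer introns. X held 245 and 1302 per Mb at those ends, against 139 and 1095 on the autosomes, and it was the higher at all 5 steps.

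**Figure D4:**
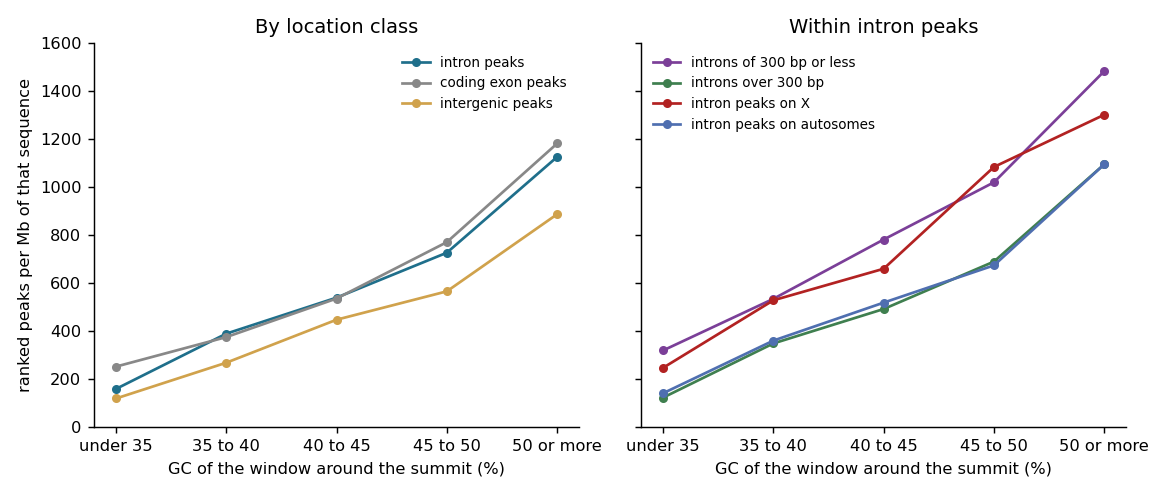
Both panels plot ranked peaks per Mb of sequence against the GC of the 101 bp window around the summit or position. The left panel compares introns with coding exons and intergenic sequence, and the right panel splits intron peaks by intron length (300 bp or less, or longer) and by chromosome (X or autosomes). All lines climb with GC, introns and coding exons nearly coincide from 35% upward, and short introns and X run above their counterparts.

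The N-box, whose open position makes it 4 hexamers rather than 1, was matched most often. It occurred within 50 bp of the summit in 963 intron peaks (10.6%, 9.99 to 11.3%), against 7.67% of all eligible intron windows of that length and 14.1% of ranked peaks in other classes. The class C site occurred in 1.78% against 1.03% of windows, and the E-box CACGTG in 2.24% against 1.35%. For CATGTG the values were 3.06% and 2.59%, for CATGCG 2.22% and 1.31%, and for CAGCTG 1.93% and 1.39%. All 6 were searched on both strands, and no run of 6 letters matches more than 1 of them.

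For the N-box and the class C site most of the difference from windows closed at matched GC from 35% upward. Below 35% GC the N-box was in 7.06% of intron peaks (6.17 to 8.03%) and 5.49% of windows, so the peaks remained above. At 40 to 45% it was 11.5% against 11.4%, and at 50% or more 15.7% against 15.4%, with the windows' value inside the peaks' interval. The class C site was in 5.59% of peaks and 5.76% of windows at 50% or more. CACGTG stayed above windows below 35% GC, at 1.09% (0.754 to 1.53%) against 0.652%. The other 3 hexamers were not split by GC. Other ranked peaks of at least 40% GC had more N-boxes, at 14.3% to 21.4%. A match is a run of letters and not a binding site.

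**Figure D5:**
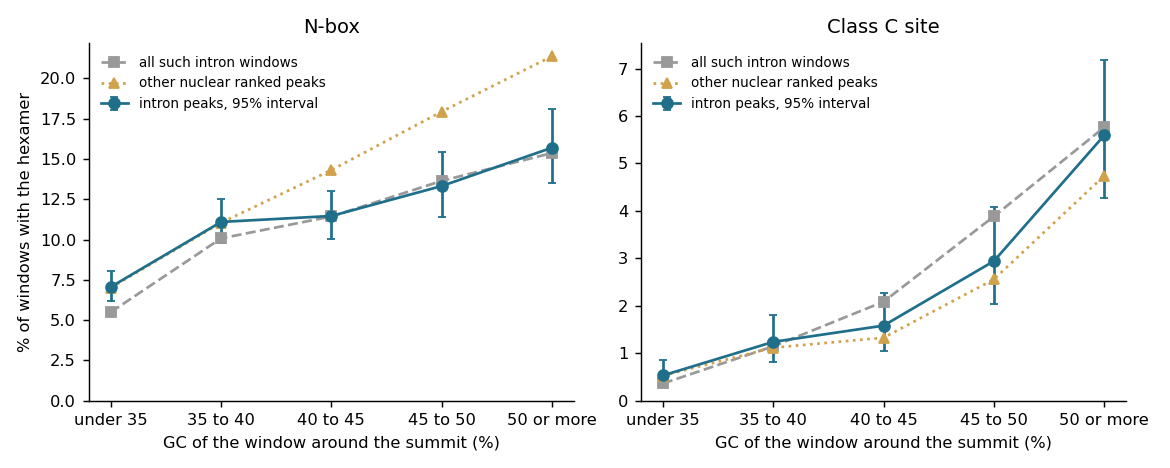
The percent of 101 bp windows with the N-box CACNAG (left) and the class C site CACGCG (right) is plotted against window GC for intron peaks with exact 95% intervals (blue), for all eligible intron windows (grey) and for ranked peaks of other classes (tan). Blue and grey lie close together from 40% GC upward for the N-box, whereas tan climbs above both to 21.4%.

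Among the intron peaks of highest score the N-box was more frequent. It was within 50 bp of 12 of the 41 summits with a score of 540 or more (29.3%, 16.1 to 45.5%), as it was of 59 of the 232 in other classes (25.4%, 19.96 to 31.5%). The 12 include those in daf-12, Y51A2D.13, zip-7, col-43, M01H9.3, Y45G12B.3, srw-51 and ceh-21. Y51A2D.13 had 4 matches in its window. Of these 41, 26 had a window of 45% GC or more, where 13.6% to 15.4% of all eligible windows hold an N-box, values below the interval. Ranked peaks of other classes hold it there in 17.9% to 21.4%, values inside the interval. That interval covers all 41 peaks and not only the 26, and overlapping peaks, as in dyf-19, count separately. The part of GC content in this frequency was not tested. None of the 6 thresholded intron peaks had an N-box. The class C site was at 2 of the 41, in mdt-26 and klp-6. In the same 4 signal groups the N-box was in 11.0%, 11.6%, 9.97% and 9.88% of intron peaks, so the frequency did not climb in steps.

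Some intron peaks sat on other non-coding genes. The summit lay in an annotated ncRNA gene in 245 intron peaks (2.70%, on 0.989% of the sequence), with a median signal of 28.6. The highest of these were T14F9.18, a 220 bp gene within peb-1, and srpr-2.2, a 299 bp gene within klp-6 (signal 81.6, score 712). Within 200 bp of an ncRNA gene there were 572 peaks (6.31% on 3.15%). Genes of piRNAs, the small RNAs of the germline Piwi pathway, held 5 summits (0.0552%) on 0.267% of the sequence.

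Most host genes had a single intron peak. Of the 4660 hosts, 2672 had 1, 1677 had 2 to 4 and 311 had 5 or more. The genes with the most were Y48C3A.5 and vab-10, a spectraplakin gene, with 22 each, then dkf-2, a protein kinase D gene, with 20, zfh-2, a zinc finger homeobox gene, with 18 and daf-16, the FOXO gene, with 17. Overlapping peaks count separately in these numbers: counted once where they overlap, the 5 genes had 12, 10, 14, 11 and 7. These genes were chosen for their counts, so their densities are not compared with other genes. The highest signals were 82.4 in Y48C3A.5, 44.4 in vab-10, 51.3 in dkf-2, 69.4 in zfh-2 and 46.0 in daf-16.

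Groups of genes for neural, muscle, matrix and signalling functions held intron peaks of ordinary signal. Over all genes with eligible introns 4660 of 18449 (25.3%) were hosts, and the number of intron peaks per gene went with the length of eligible intron (Spearman's rho 0.397 across genes, a description). Of 33 channel and synapse genes with eligible introns 25 were hosts, of 24 axon guidance and adhesion genes 20, of 24 body muscle genes 13 and of 21 basement membrane and matrix genes 16. Of 15 large cytoskeletal genes 8 were hosts, of 26 Wnt pathway genes 10, of 17 Notch pathway genes 8 and of 31 other bHLH genes 12. No peak in any of these groups had a score of 540 or more, where the share over all intron peaks was 0.452%. Densities in these 8 groups ran from 313 per Mb in body muscle genes to 464 in basement membrane genes and 533 in Notch genes, against 298 over all genes. Group medians of signal lay between 21.7 and 30.2, around the 25.1 of all intron peaks.

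In the neural and adhesion groups the highest peaks were in hmr-1, the cadherin gene (signal 60.8, compared-list signals 33.1 and 19.4), lad-2, an L1CAM homologue (56.0, with 32.6 and 21.6), and slo-1, a BK potassium channel gene (55.7, with 37.4 and 15.1). All 3 were higher in the first compared list, as were 66.6% of all intron peaks. The Eph receptor gene vab-1 held 15 intron peaks on 15.1 kb of eligible intron, the highest at 51.9. The synaptic genes syd-2, which encodes liprin-alpha, and unc-31, which encodes the CAPS protein of dense-core vesicle release, reached 43.0 and 41.2.

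Muscle and matrix genes gave similar values. The highest were in unc-22, the twitchin gene (63.97, compared-list signals 27.4 and 36.9), unc-68, the ryanodine receptor gene (63.4, with 36.8 and 30.2, and a score of 500), and deb-1, the vinculin gene (47.8). Among matrix genes they were let-2, a type IV collagen gene (55.4), lon-2, a glypican gene (55.0), and ost-1, the SPARC gene (53.7). In the cytoskeletal group let-805, the myotactin gene, followed vab-10 at 41.4 and unc-70, the beta-spectrin gene, reached 34.97. These peaks were picked as the highest of their groups, so signals above the median of intron peaks largely follow from that choice. All were under 67.5, the lower quartile of the 41 with a score of 540 or more.

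Notch, Wnt and bHLH genes had single peaks of the same order. In the Notch group they were sel-8, which encodes the Mastermind-like coactivator (47.9), arg-1, a DSL ligand gene (42.4), and sel-10, an F-box gene (38.2). The Nemo-like kinase gene lit-1 had the highest of all these groups, at 67.5 with compared-list signals of 26.96 and 35.7 and a score of 358, and the Frizzled genes mig-1 and lin-17 reached 46.8 and 38.7. Of bHLH genes, hlh-30, the TFEB homologue, reached 59.1, hlh-2, the E protein gene, 46.2, and mxl-2, an Mlx homologue, 43.7. The 6 REF-1 family genes, to which hlh-26 belongs, had 0.679 kb of eligible intron between them and no intron peak.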

How the data were processed

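The submitters deposited ranked and thresholded peak lists for each replicate and for the series on build ce11. Per the labels and the layout, the score is the authors' rescaled IDR, the deposited signal is the peak caller's enrichment value on an unstated scale, and the authors' q-values and IDRs are given as −log10. Neither the peak caller nor the software behind the IDR or the control is stated in the labels or headers. Intron peaks came from the series list that compares the replicates. Genes were from Ensembl release 115 and bases from RefSeq, both WBcel235, the assembly of ce11, and no peak passed a chromosome's end. The host intron was that of the transcript with the longest coding sequence. Densities divide peaks by all bases meeting the same rule, and hexamer shares use every eligible 101 bp window. Exact (Clopper-Pearson) 95% intervals cover counting error over peaks only. No test was run, since 1 group of 2 replicates has no second condition and peaks are not replicates. Members and gene lists were chosen with earlier results of these data known. Genes named are hosts of thresholded intron peaks, then of others by signal to 25 genes, the 5 genes with most peaks, and up to 3 per list. The genes ceh-21, lgc-53, rpl-3, atg-2 and F53F10.1, the ncRNA genes, the GC-matched densities and the telomere hexamer were chosen after their values were seen. In the list of channel genes nca-1 had no match. Alternatives were other windows, lists, annotations and score limits, merged peaks and each replicate alone. Python 3.11.15, numpy 2.4.6, pandas 2.3.3, scipy 1.17.1 and matplotlib 3.10.9 were used, and the scripts were tested on simulated positions.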

Additional observations from a re-analysis of the deposited data

How the results depend on the processing

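The intron share of nuclear peaks (25.7%) was 22.7% with a promoter window of 1000 bp upstream to 200 bp downstream, 24.9% with overlapping peaks merged and 15.02% among peaks with a score of 540 or more, and the replicates' own lists gave 24.7 to 25.8%. The thresholded share (0.0662%) was 0.452% with 540 as the limit, and the replicates' own lists gave 0.0160 to 0.0209%, which is 1 peak each. The thresholded share over all nuclear peaks of those own lists is not given here. The share in both own lists (29.5%) was 28.1% in the other series list, 26.6% with merged peaks, 11.1% with summits within 100 bp and 97.6% at a score of 540 or more. The N-box share (10.6%) was 5.14% within 25 bp, 21.1% within 100 bp and 29.3% at a score of 540 or more. The first-intron share (23.9%) was 21.1% with the wider promoter window and 32.01% when a first intron of any transcript counted, and the replicates' own lists gave 22.8 to 24.0%. The cause of these changes was not tested, apart from the windows and limits, which by their own construction hold more or fewer bases and peaks. Every other alternative run stayed within the interval of the value reported. No paired analysis was possible because there is 1 group of 2 replicates and no result comes from a test between groups. The depth behind peaks is unknown.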

Other observations

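The hexamer TTAGGC, the repeat unit of worm telomeres, was looked for on both strands after the repeats at some summits were seen. It lay within 50 bp of the summit in 540 intron peaks (5.96%, exact 95% interval 5.48 to 6.46%), against 3.86% of all eligible intron windows and 2.37% of ranked peaks in other classes. These shares were not split by GC, whose median was 38.6% in intron peaks and 32.7% over all eligible intron positions. Intron peaks with the hexamer had a median signal of 26.9 against 25.03 without it, and overlapped both replicates' own lists in 33.5% against 29.2%. Of the 540, 4 had a score of 540 or more and none was thresholded, where the shares over all intron peaks were 0.452% and 0.0662%. The peaks in fnip-2 and ceh-21 show it in capitals, as RefSeq bases of WBcel235 on the forward strand.
fnip-2 on chrIV:2228946-2228975: ttagacgtgggcTTAGGCttcagcttaatc
ceh-21 on chrX:1850786-1850815: aggccatcaggcTTAGGCcctcaggcgttg
Their signals were 82.1 and 74.6.

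Bases that RefSeq soft-masks as repeats or low complexity were fewer at intron peaks than in introns at large. They made up 32.4% of the window on average in intron peaks, 48.9% in all eligible windows, 22.6% in the 41 intron peaks with a score of 540 or more and 17% in ranked peaks of other classes. In 4 equal groups of intron peaks by signal, from the highest to the lowest, the mean was 28.5%, 31.6%, 33.2% and 36.1%. The part of masked sequence in these counts was not tested.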
